A study of Mus musculus with 8 samples.

Results

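Endothelial identity genes are genes by which the inner lining of blood and lymph vessels is recognised. A list of 38 such genes was examined in ischemic mouse leg muscle, and all 38 were found by symbol among the 24848 genes of each deposited table. The list holds 11 genes of junctions and the cell surface, 3 matrix or secreted proteins, 10 transcription factors, 6 signalling genes, 5 arterial or venous genes, 2 capillary genes and 1 lymphatic gene. RNA was sequenced from the tibialis anterior of male Leprdb/db mice, 4 libraries from the praliciguat group and 4 from the placebo group. Praliciguat stimulates soluble guanylate cyclase, the receptor through which nitric oxide raises cGMP. The praliciguat group ate chow with 75 ppm of the drug, set to reach the peak plasma level of 10 mg/kg/day by mouth. The placebo group ate control chow without it. Both groups started their diet on day -3, had hind limb ischemia surgery, stayed on the diet for 31 days and gave muscle on day 28 after surgery. Every mouse of both groups carried the Leprdb/db mutation of the leptin receptor in every tissue; lean mice, unoperated muscle and earlier times were not analysed here, and the sources used give no age.

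Endothelial cells are held to each other by adherens and tight junction proteins such as VE-cadherin, PECAM-1 and claudin-5. Their identity is kept by transcription factors of the ETS, SOXF, GATA and KLF families, and ETS factors bind the core GGAA at most endothelial enhancers. Arteries, veins, capillaries and lymphatics add their own genes, for example connexins and ephrin-B2 in arteries, the ephrin receptor EphB4 in veins and GPIHBP1 in capillaries. Skeletal muscle is densely supplied with capillaries, and growth or loss of these vessels after ischemia is a usual readout of recovery.

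The 8 libraries held 21099764 to 31896205 expected counts, and 13569 genes were tested. Whether every library came from its own mouse is not stated, so the tests measure only the spread between libraries. In bulk tissue, fewer endothelial cells, less RNA per endothelial cell and more RNA from other cells cannot be told apart. All 8 skeletal muscle markers, Acta1 and Ckm among them, were detected, with a summed level of 128199 to 180302 CPM (reads of a gene scaled to library size) in praliciguat libraries and 128429 to 155596 CPM in placebo libraries. Title numbers come as a lower run and an upper run, each holding 2 praliciguat and 2 placebo libraries; what sets the runs apart is not stated. Praliciguat replicate 3 stood apart from the other libraries in its macrophage and fibroblast markers. Its 12 macrophage and leukocyte markers summed to 884 CPM, against 92.0 to 199.8 CPM in the other praliciguat libraries and 118 to 309.9 CPM in placebo libraries. Its 9 fibroblast markers summed to 8028 CPM, against 1438 to 3069 CPM in the other praliciguat libraries and 2407 to 3967 CPM in placebo libraries.

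Levels of the genes were compared with each other in TPM, RSEM's transcript level scaled by gene length. Aqp1, a water channel of capillary endothelium and red cells, was the most abundant of the 38. It had 271, 268, 199 and 247 TPM in praliciguat replicates 1 to 4, against 409, 277, 274 and 366 TPM in placebo replicates 1 to 4. Gpihbp1, which holds lipoprotein lipase on the capillary surface, came next with 110.5 ± 15.1 TPM in praliciguat libraries and 140.3 ± 28.3 TPM in placebo libraries (SD, n = 4 each). Aqp1 lay above Gpihbp1 in all 8 libraries, without overlap of their ranges. Cdh5 followed with 71.1 ± 11.8 and 95.3 ± 9.96 TPM, and Pecam1 with 69.8 ± 10.2 and 89.6 ± 12.5 TPM, for praliciguat and placebo (SD, n = 4 each). Below these came S1pr1, Cd34, Klf2, Esam, Egfl7 and Klf4, each averaging 42.8 to 67.9 TPM over the 8 libraries. At the bottom stood Tal1, a factor of blood and endothelial precursors, with 1.0 ± 0.233 TPM in praliciguat libraries and 1.53 ± 0.162 TPM in placebo libraries, and Bmx with 0.572 ± 0.153 and 0.798 ± 0.321 TPM (SD, n = 4 each). Ordered by mean TPM, 35 of the 37 pairs of neighbours overlapped in their ranges over the 8 libraries. Only Aqp1 and Gpihbp1, and Cyyr1 and Tal1, had separate ranges. Such ranges ignore that both genes of a pair were measured in the same libraries. Gpihbp1, for example, lay above Cdh5 in all 8 libraries although their ranges overlapped. The lowest single count of any member was 18 reads, for Bmx.

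**Figure D1:**
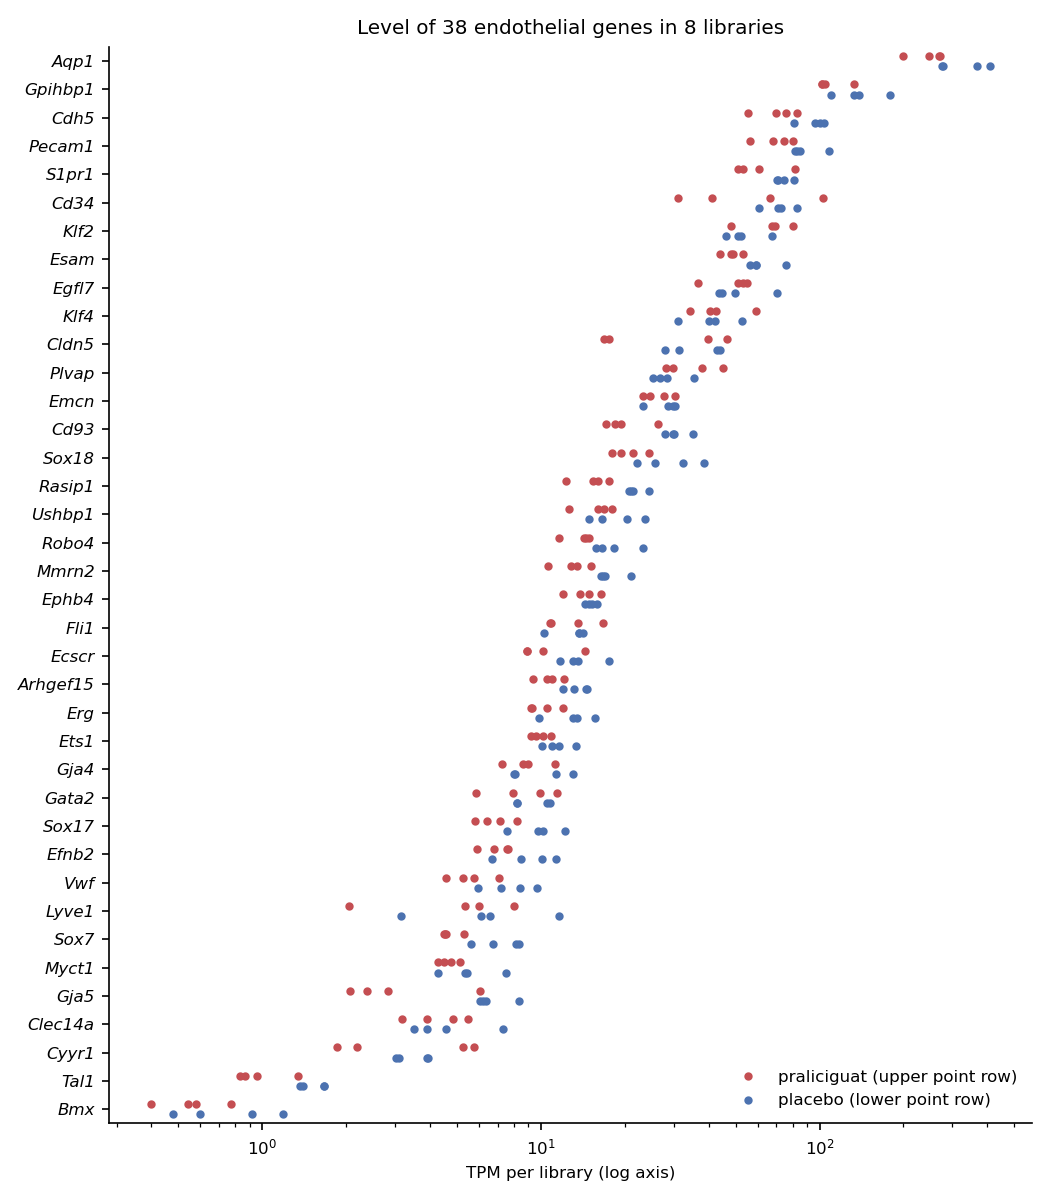
Level of each of the 38 genes in TPM on a log axis, 1 point per library, praliciguat in red above placebo in blue, ordered by mean TPM. Aqp1 heads the order and Bmx ends it, and for 33 of the 38 genes the mean of the red points lies left of that of the blue points, with the points of 10 genes fully separated.

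The comparison of praliciguat with placebo asked whether vessel lining transcripts differ in ischemic muscle under the drug. Endothelial genes had mostly lower values with praliciguat, and no single gene passed the threshold. The 38 genes were chosen with earlier results of these data known. Shares over all genes tested are therefore set beside them as description, not as a test of the list. Of the 38 genes, 33 had a log2 fold change below 0, where 44.8% of all genes tested did. The median log2 fold change was -0.31 over the 38 genes and 0.02 over all genes tested. edgeR called 0 of the 38 at an adjusted p under 0.05, and 0% of all genes tested, with the lowest adjusted p among the 38 at 0.265 (Cd93). At an unadjusted p under 0.05 there were 13 of the 38 lower and 0 higher, against 3.78% lower and 1.95% higher among all genes tested. In CPM the groups separated for 6 of the 38, each with its highest praliciguat library under its lowest placebo library, and for 0 in the other direction, against 2.54% and 1.32% of all genes tested. In TPM the groups separated downward for 10 of the 38, against 3.2% of all genes tested: the same 6 and Pecam1, Esam, Tal1 and Aqp1. DESeq2 called 2 of the 38 lower (Cd93, adjusted p = 0.00443, and Sox7, adjusted p = 0.0463), where it called 0.842% of all genes lower. Without placebo replicate 1, or without praliciguat replicate 4, only 5 of the 38 had an unadjusted edgeR p under 0.05 on the lower side. On the higher side 2 and 1 did, and in either direction 573 of 13703 and 641 of 13722 genes tested. Without praliciguat replicate 3, the library high in macrophage and fibroblast markers, 31 of the 38 lay below 0 and the median was -0.31. In that fit 12 of the 38 had an unadjusted p under 0.05 on the lower side and 1 on the higher side. Among all genes tested, 1263 of 13651 had one in either direction, against 778 of 13569 with all libraries.

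**Figure D2:**
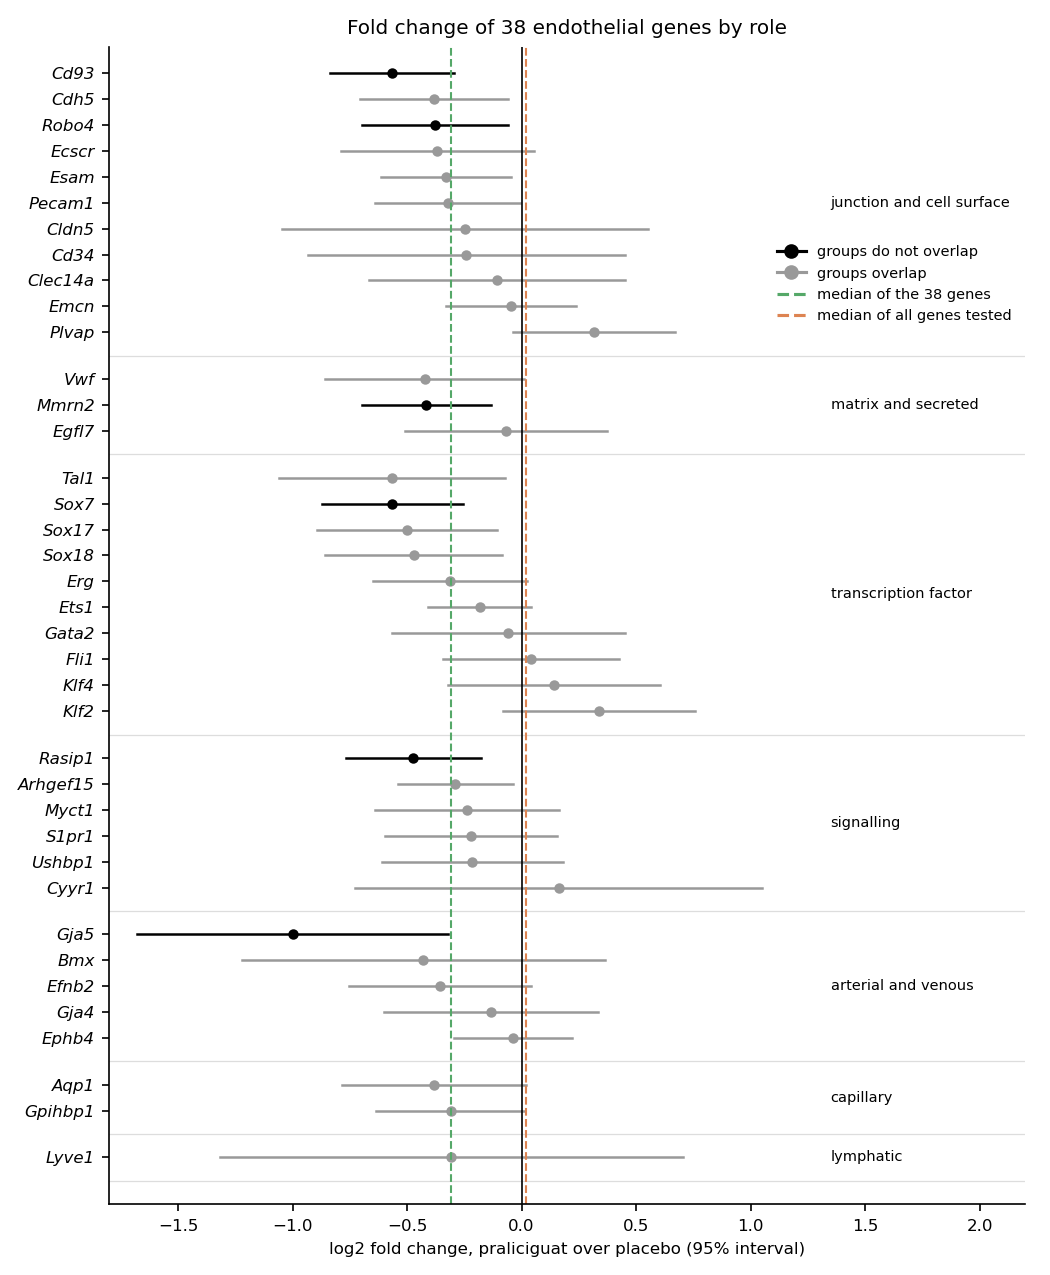
Log2 fold change of praliciguat over placebo for the 38 genes, grouped by role, with 95% intervals from the edgeR fit; black marks genes whose groups do not overlap in CPM. The green line at -0.31 is the median of the 38 genes and the orange line at 0.02 that of all genes tested; 33 of the points lie left of 0.

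Promoter sequences of the members were read beside these values. Sequences from RefSeq on GRCm38.p6, the assembly of mm10, were matched by symbol for 21 of the 38 genes, and 250 bases before the annotated start were searched on both strands. These 3 were picked by their values: Gja5 and Rasip1, whose groups separated downward, and Klf2, whose fold change lay above 0 with overlapping groups. Klf2 lay above all placebo libraries in 3 of 4 praliciguat libraries and below them all in praliciguat replicate 3. Capitals mark the ETS core GGAA or its reverse TTCC. In GRCm38.p6 they lie at chr3:97032152-97032401, chr7:45627287-45627536 and chr8:72318812-72319061, all on the plus strand.
Gja5: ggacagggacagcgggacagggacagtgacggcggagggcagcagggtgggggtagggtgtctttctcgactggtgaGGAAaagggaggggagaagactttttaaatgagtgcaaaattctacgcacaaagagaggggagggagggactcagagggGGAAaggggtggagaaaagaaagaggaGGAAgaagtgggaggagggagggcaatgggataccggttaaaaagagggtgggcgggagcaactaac
Rasip1: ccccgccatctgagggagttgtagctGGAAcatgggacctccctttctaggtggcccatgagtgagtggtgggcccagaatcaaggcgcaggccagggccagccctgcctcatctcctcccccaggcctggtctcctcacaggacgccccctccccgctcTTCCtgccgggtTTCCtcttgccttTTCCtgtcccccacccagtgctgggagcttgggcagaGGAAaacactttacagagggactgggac
Klf2: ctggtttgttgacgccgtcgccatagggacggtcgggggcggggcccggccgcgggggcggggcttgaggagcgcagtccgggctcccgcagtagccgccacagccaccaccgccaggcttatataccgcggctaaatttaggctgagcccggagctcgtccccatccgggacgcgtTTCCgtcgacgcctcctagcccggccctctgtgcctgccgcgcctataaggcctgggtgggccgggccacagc

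The core was found 3 times before Gja5, 5 times before Rasip1 and 1 time before Klf2. Robo4, whose groups also separated downward, held the core 3 times, and its window is not shown. The core closest to the start ended 63 bases before it in Gja5, 24 in Rasip1 and 69 in Klf2. Among the 21 members 90.5% held GGAA in this window, and among 27025 promoters, 1 per gene, 93.4% did. The longer CCGGAA was in 0 of 21 members and in 12.2% of all promoters. The KLF letters CACCC were in 11 of 21 (52.4%) and in 51.3%, with 4 matches before Gja5. The GATA letters AGATAA and the SOX letters AACAAT were each in 2 of 21 (9.52%), against 10.3% and 9.65% of all promoters. The core GGAA lies within CCGGAA, and none of the other motifs contains another. Median GC content was 56.4% in the 21 windows and 52.0% in all.

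In RefSeq coordinates of mm10, Cd93 lies at chr2:148436651-148443535, Robo4 at chr9:37401902-37414023, Mmrn2 at chr14:34375504-34404287, Sox7 at chr14:63943706-63950732, Rasip1 at chr7:45627537-45639092 and Gja5 at chr3:97032402-97053634. Pecam1 lies at chr11:106654213-106715281, Cdh5 at chr8:104101613-104144504 and Klf2 at chr8:72319062-72321654. Exons of 8 of the 38 genes overlap another annotated gene, 7 of them on the other strand, and no source used here gives the strand setting with which reads were counted. The counts of these genes are therefore uncertain.

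Among genes of junctions and the cell surface, 10 of 11 had a fold change below 0, and 5 had an unadjusted p under 0.05. Cd93, a lectin-like receptor of the endothelial surface that binds multimerin-2, had the lowest p of all 38. Its level was 73.5, 66.0, 90.5 and 67.9 CPM in praliciguat replicates 1 to 4, against 101, 114, 121 and 105 CPM in placebo replicates 1 to 4. The groups did not overlap, and the log2 fold change was -0.57 ± 0.12 SE, a level 67.6% of placebo. Leaving out any one library gave -0.67 to -0.51. Robo4, a guidance receptor that stabilises vessel walls, was the other gene of this kind without overlap. It had 31.2, 32.6, 28.0 and 24.2 CPM in praliciguat replicates 1 to 4, against 47.7, 34.1, 35.9 and 33.1 CPM in placebo replicates 1 to 4 (log2 fold change -0.38 ± 0.14 SE, edgeR adjusted p = 0.726). Its groups were separated by a narrow margin, with placebo replicate 1 standing high.

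Cdh5 encodes VE-cadherin, the adherens junction protein of endothelium. It had 186, 159, 155 and 119.9 CPM in praliciguat replicates 1 to 4, against 214, 215, 210.2 and 168 CPM in placebo replicates 1 to 4, and overlapped through praliciguat replicate 1 and placebo replicate 4. Its log2 fold change was -0.38 ± 0.14 SE (edgeR adjusted p = 0.726). Pecam1, which joins endothelial cells and lets leukocytes pass, had 145, 125, 122 and 98.2 CPM in praliciguat replicates 1 to 4, against 185, 151, 140.4 and 138 CPM in placebo replicates 1 to 4. Its log2 fold change was -0.32 ± 0.14 SE, with an unadjusted 95% interval from -0.64 to -0.01 (edgeR adjusted p = 0.859). Without placebo replicate 1 it was -0.22. For Esam, an endothelial adhesion molecule of tight junctions, the values were 48.0, 53.0, 43.0 and 41.6 CPM in praliciguat replicates 1 to 4, against 71.0, 58.3, 52.8 and 51.3 CPM in placebo replicates 1 to 4 (log2 fold change -0.33 ± 0.13 SE). The edgeR adjusted p of Esam was 0.746. In both Pecam1 and Esam, a single praliciguat library reached into the placebo range.

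The remaining surface genes missed an unadjusted p of 0.05, and their groups overlapped. Ecscr, an endothelial surface protein of cell migration, had a log2 fold change of -0.37 ± 0.19 SE. Cldn5, the tight junction protein claudin-5, had -0.25 ± 0.35, with 12.3 to 33.8 CPM in praliciguat libraries and 18.8 to 31.0 CPM in placebo libraries. Clec14a, a relative of Cd93 that also binds multimerin-2, had -0.11 ± 0.25 SE, and its sign turned without placebo replicate 1 (0.17). Emcn, a sialomucin of capillaries and veins, had -0.05 ± 0.13 SE, with a 95% interval from -0.33 to 0.24. Plvap, the protein of the diaphragms over endothelial pores, was the one surface gene above 0, at 36.8 ± 6.91 CPM in praliciguat libraries and 29.5 ± 4.80 CPM in placebo libraries (SD, n = 4 each; log2 fold change 0.32 ± 0.16 SE, edgeR adjusted p = 0.928).

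Cd34, a sialomucin of capillary endothelium that fibroblast-like progenitors and satellite cells of muscle also carry, split by run. It had 56.1, 43.3, 127 and 87.6 CPM in praliciguat replicates 1 to 4, against 94.4, 97.0, 103 and 77.1 CPM in placebo replicates 1 to 4. Praliciguat replicate 3 was the highest and praliciguat replicate 2 the lowest of all 8 libraries. The difference in mean log2 CPM, praliciguat minus placebo, was -0.96 within the lower run and 0.24 within the upper run, against a fitted log2 fold change of -0.24 ± 0.30 SE over both. Praliciguat replicate 3 was also the highest and praliciguat replicate 2 the lowest in fibroblast markers, whose sum was 2431, 1438, 8028 and 3069 CPM in praliciguat replicates 1 to 4, against 2805, 2625, 3967 and 2407 CPM in placebo replicates 1 to 4. Without praliciguat replicate 3 the log2 fold change of Cd34 was -0.57. The part of fibroblast-like cells in the values of Cd34 was not tested.

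All 3 matrix or secreted genes had a fold change below 0. Mmrn2, the multimerin of the endothelial matrix to which Cd93 and Clec14a bind, had 29.6, 28.7, 30.3 and 22.5 CPM in praliciguat replicates 1 to 4, against 44.1, 36.2, 33.5 and 34.6 CPM in placebo replicates 1 to 4. Its groups did not overlap (log2 fold change -0.42 ± 0.13 SE, edgeR adjusted p = 0.493). Leaving out any one library gave -0.47 to -0.32. Vwf, the clotting factor that endothelium stores and platelets bind, had 29.2, 36.5, 24.3 and 22.4 CPM in praliciguat replicates 1 to 4, against 46.7, 36.5, 27.5 and 39.7 CPM in placebo replicates 1 to 4. Its log2 fold change was -0.42 ± 0.19 SE, and the groups overlapped. Egfl7, a secreted endothelial protein whose gene also holds a microRNA, had -0.07 ± 0.20 SE, with a 95% interval from -0.51 to 0.37. Up to 64 bases of its exons overlap an exon of Agpat2 on the other strand, so its count is uncertain.

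Of the 10 transcription factors 7 had a fold change below 0 and 3 above 0, and 4 had an unadjusted p under 0.05. The 3 SOXF factors, which act together in arterial and lymphatic specification, all had an unadjusted p under 0.05 on the lower side. Sox7 had 8.12, 8.40, 7.49 and 9.26 CPM in praliciguat replicates 1 to 4, against 14.0, 10.2, 13.8 and 11.3 CPM in placebo replicates 1 to 4. The groups did not overlap, and the log2 fold change was -0.56 ± 0.14 SE (edgeR adjusted p = 0.341). Sox17, the SOXF factor of arteries, had 15.9, 13.8, 11.0 and 11.0 CPM in praliciguat replicates 1 to 4, against 22.6, 19.4, 16.8 and 14.1 CPM in placebo replicates 1 to 4 (log2 fold change -0.50 ± 0.17 SE, edgeR adjusted p = 0.650). Sox18, which starts lymphatic fate in the embryo, had 20.6, 16.6, 16.5 and 14.7 CPM in praliciguat replicates 1 to 4, against 31.0, 18.7, 24.9 and 20.2 CPM in placebo replicates 1 to 4 (log2 fold change -0.47 ± 0.17 SE, edgeR adjusted p = 0.703). For Sox17 and Sox18 the highest praliciguat library overlapped the lowest placebo library. Within the lower and the upper run the differences were -0.53 and -0.58 for Sox7, -0.50 and -0.49 for Sox17, and -0.38 and -0.53 for Sox18. An exon of Sox17 overlaps a noncoding transcript on the other strand by up to 804 bases, and its count is therefore uncertain.

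The 3 ETS factors, which share the DNA-binding domain that reads GGAA, had smaller differences. Erg, the factor most tied to adult endothelial identity, had 18.3, 16.4, 19.1 and 15.7 CPM in praliciguat replicates 1 to 4, against 26.0, 23.7, 20.8 and 16.0 CPM in placebo replicates 1 to 4. Placebo replicate 4 lay inside the praliciguat range (log2 fold change -0.31 ± 0.15 SE, edgeR adjusted p = 0.912). Fli1, its close relative, had 22.3 ± 4.99 CPM in praliciguat libraries and 21.6 ± 3.33 CPM in placebo libraries (SD, n = 4 each; log2 fold change 0.04 ± 0.17 SE). Ets1, which leukocytes also express and which lies beside Fli1 on chromosome 9, had 27.1 ± 1.63 CPM in praliciguat libraries and 30.8 ± 3.52 CPM in placebo libraries (SD, n = 4 each; log2 fold change -0.18 ± 0.10 SE). Tal1, a factor shared with blood precursors, had 1.96, 3.23, 2.07 and 1.99 CPM in praliciguat replicates 1 to 4, against 3.74, 3.25, 3.02 and 3.66 CPM in placebo replicates 1 to 4 (log2 fold change -0.57 ± 0.22 SE, edgeR adjusted p = 0.749). The groups of Tal1 overlapped through praliciguat replicate 2. Gata2, a zinc finger factor of endothelium and blood, had -0.06 ± 0.23 SE, with 0.23 within the lower run and -0.43 within the upper run.

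Klf2 and Klf4, the factors that blood flow induces in endothelium and that drive endothelial nitric oxide synthase, had fold changes above 0. Klf2 had 77.1, 66.0, 42.1 and 64.1 CPM in praliciguat replicates 1 to 4, against 61.9, 44.2, 45.5 and 45.6 CPM in placebo replicates 1 to 4. In 3 of the 4 praliciguat libraries Klf2 lay above all placebo libraries, and in praliciguat replicate 3 it lay below them all. Its log2 fold change was 0.34 ± 0.19 SE with a 95% interval from -0.08 to 0.76 (edgeR adjusted p = 0.961), and 0.22 to 0.49 with any one library left out. Klf4 had 99.5, 72.6, 52.3 and 65.7 CPM in praliciguat replicates 1 to 4, against 67.6, 52.1, 61.1 and 82.5 CPM in placebo replicates 1 to 4 (log2 fold change 0.14 ± 0.21 SE), with wide overlap. The difference in Klf4 was 0.52 in the lower run against -0.28 in the upper run, and its sign turned without praliciguat replicate 1 (-0.05). Both genes are also expressed by leukocytes and other cells of muscle.

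**Figure D3:**
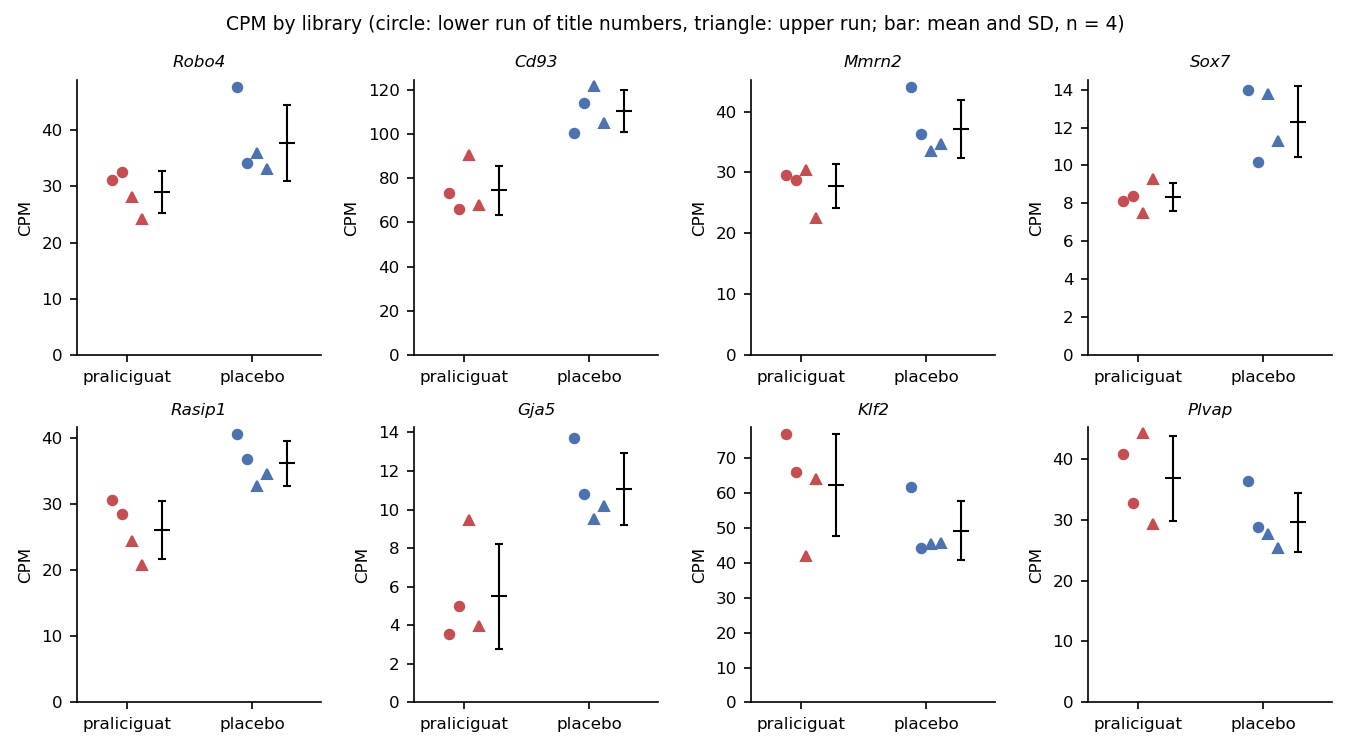
CPM per library of the 6 genes whose groups do not overlap (Robo4, Cd93, Mmrn2, Sox7, Rasip1, Gja5) and of Klf2 and Plvap, praliciguat left of placebo; circles are the lower and triangles the upper run of title numbers, bars the mean and SD of 4 libraries. In the first 6 genes every red point lies below every blue point, in Gja5 by 9.47 against 9.50 CPM, whereas Klf2 and Plvap have higher praliciguat means with overlap.

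Of the 6 signalling genes, 5 had a fold change below 0 and 2 an unadjusted p under 0.05. Rasip1, a Rap1 and Ras partner that endothelium needs to open vessel lumens, had 30.6, 28.5, 24.3 and 20.8 CPM in praliciguat replicates 1 to 4, against 40.6, 36.8, 32.7 and 34.6 CPM in placebo replicates 1 to 4. The groups did not overlap, and the log2 fold change was -0.47 ± 0.13 SE (edgeR adjusted p = 0.421). Its exons overlap those of 3 other annotated genes, among them the antisense gene A030001D20Rik, which averaged 3.60 CPM in praliciguat libraries and 3.84 CPM in placebo libraries. Arhgef15 had 25.5, 28.7, 22.3 and 21.1 CPM in praliciguat replicates 1 to 4, against 32.1, 27.8, 31.0 and 28.4 CPM in placebo replicates 1 to 4 (log2 fold change -0.29 ± 0.11 SE, edgeR adjusted p = 0.746). Only praliciguat replicate 2 reached the placebo range.

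S1pr1, the sphingosine-1-phosphate receptor that tightens endothelial junctions, had 100.8 ± 26.0 CPM in praliciguat libraries and 118 ± 8.68 CPM in placebo libraries (SD, n = 4 each; log2 fold change -0.22 ± 0.17 SE). Ushbp1 and Myct1 had log2 fold changes of -0.22 ± 0.18 and -0.24 ± 0.18 SE, with overlap. Cyyr1 had 6.24, 5.83, 1.84 and 2.31 CPM in praliciguat replicates 1 to 4, against 3.21, 4.25, 2.98 and 3.99 CPM in placebo replicates 1 to 4. Its praliciguat libraries of the lower run lay above, and those of the upper run below, all placebo libraries, giving differences of 0.70 and -0.73 within the runs and a fitted log2 fold change of 0.16 ± 0.39 SE over both.

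Among arterial and venous genes, Gja5, an arterial gap junction connexin, had the largest fold change of the 38. It had 3.57, 4.98, 9.47 and 3.98 CPM in praliciguat replicates 1 to 4, against 13.7, 10.8, 9.50 and 10.2 CPM in placebo replicates 1 to 4. Its mean in praliciguat libraries was 5.50 ± 2.72 CPM and in placebo libraries 11.1 ± 1.85 CPM (SD, n = 4 each), and praliciguat replicate 3 nearly reached placebo replicate 3. The log2 fold change was -1.0 ± 0.30 SE, with a 95% interval from -1.68 to -0.32 (edgeR adjusted p = 0.494), and -1.40 to -0.84 with any one library left out. An exon of Gja5 overlaps Gpr89 on the other strand by up to 165 bases, so the count of Gja5 is uncertain. Gpr89 averaged 8.58 CPM in praliciguat libraries and 8.03 CPM in placebo libraries. Gja4, the other connexin of arterial endothelium, had 7.96, 7.74, 9.07 and 6.21 CPM in praliciguat replicates 1 to 4, against 11.0, 9.97, 6.48 and 6.60 CPM in placebo replicates 1 to 4 (log2 fold change -0.13 ± 0.21 SE). The Gja4 groups overlapped, with a difference of -0.41 in the lower run and of 0.20 in the upper run. The ratio of Gja5 to Gja4 counts was 0.448, 0.643, 1.05 and 0.640 in praliciguat replicates 1 to 4, against 1.25, 1.08, 1.47 and 1.54 in placebo replicates 1 to 4, without overlap. The matching ratio of Efnb2 to Ephb4 counts was also computed, and its groups overlapped. The Gja5 to Gja4 ratio was chosen after the values were seen and carries no test and no share over other gene pairs.

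Efnb2, the arterial ligand ephrin-B2, had 18.4, 16.8, 16.9 and 13.9 CPM in praliciguat replicates 1 to 4, against 26.3, 24.5, 18.7 and 15.1 CPM in placebo replicates 1 to 4 (log2 fold change -0.36 ± 0.18 SE, edgeR adjusted p = 0.928). The groups overlapped through placebo replicate 4. Ephb4, its venous receptor, had 39.9, 37.0, 30.7 and 28.4 CPM in praliciguat replicates 1 to 4, against 35.3, 35.2, 33.0 and 36.0 CPM in placebo replicates 1 to 4. Its log2 fold change was -0.04 ± 0.12 SE, and the praliciguat libraries lay on both sides of the placebo libraries. Bmx, a Tec family kinase of arterial endothelium, had 0.902, 0.972, 1.17 and 0.639 CPM in praliciguat replicates 1 to 4, against 1.87, 0.993, 0.720 and 1.41 CPM in placebo replicates 1 to 4 (log2 fold change -0.43 ± 0.35 SE). Its 95% interval ran from -1.22 to 0.36.

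Both capillary genes had fold changes below 0 and missed an unadjusted p of 0.05. Gpihbp1 had 36.7, 36.8, 43.1 and 34.5 CPM in praliciguat replicates 1 to 4, against 59.3, 46.9, 45.0 and 36.4 CPM in placebo replicates 1 to 4 (log2 fold change -0.31 ± 0.14 SE, edgeR adjusted p = 0.899). Its groups overlapped through placebo replicate 4 alone. Aqp1 had 410.2, 414, 274 and 362 CPM in praliciguat replicates 1 to 4, against 590.1, 419.5, 377 and 515 CPM in placebo replicates 1 to 4 (log2 fold change -0.38 ± 0.18 SE, edgeR adjusted p = 0.899). Overlap in Aqp1 came from placebo replicate 3. Red cells and platelets, which can add Aqp1 and Vwf, had 10 markers with a summed level of 169.7 to 425 CPM in praliciguat libraries and 180.9 to 446 CPM in placebo libraries. Most of this sum was the haemoglobin gene Hbb-bs, averaging 200 CPM in praliciguat and 221 CPM in placebo libraries. The platelet genes Pf4, Ppbp, Gp9 and Itga2b averaged at most 6.59 and 4.77 CPM each, so the sum says little about platelets. Lyve1, a hyaluronan receptor of lymphatics and of some macrophages, had 8.55, 2.95, 6.94 and 11.1 CPM in praliciguat replicates 1 to 4, against 8.29, 4.49, 8.47 and 15.3 CPM in placebo replicates 1 to 4. Its libraries overlapped widely, and the log2 fold change of -0.31 ± 0.44 SE had a 95% interval from -1.32 to 0.70.

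Across libraries, the mean log2 CPM of the 38 genes gave a score per library. It was 4.61, 4.46, 4.45 and 4.25 in praliciguat replicates 1 to 4, against 4.96, 4.70, 4.61 and 4.59 in placebo replicates 1 to 4. The highest praliciguat library lay just above the lowest placebo libraries, and the means were 4.44 ± 0.149 and 4.72 ± 0.169 for praliciguat and placebo (SD, n = 4 each), a difference of -0.27. The difference was -0.29 between the lower-run libraries and -0.25 between the upper-run libraries. As a share of all reads, the 38 genes took 0.158 ± 0.0124% in praliciguat libraries and 0.2000 ± 0.0278% in placebo libraries (SD, n = 4 each). The low and high ends were set by 1 library each: praliciguat replicate 4 was the lowest of the 8 libraries for 20 genes, and placebo replicate 1 the highest for 23. Praliciguat replicate 1 was highest for 9, Klf2, Klf4 and Fli1 among them. With any one library left out, 26 of the 38 genes had a fold change below 0 every time. In both runs at once, 28 of the 38 had a difference below 0, and 3 had one above 0 (Plvap, Klf2 and Fli1).

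**Figure D4:**
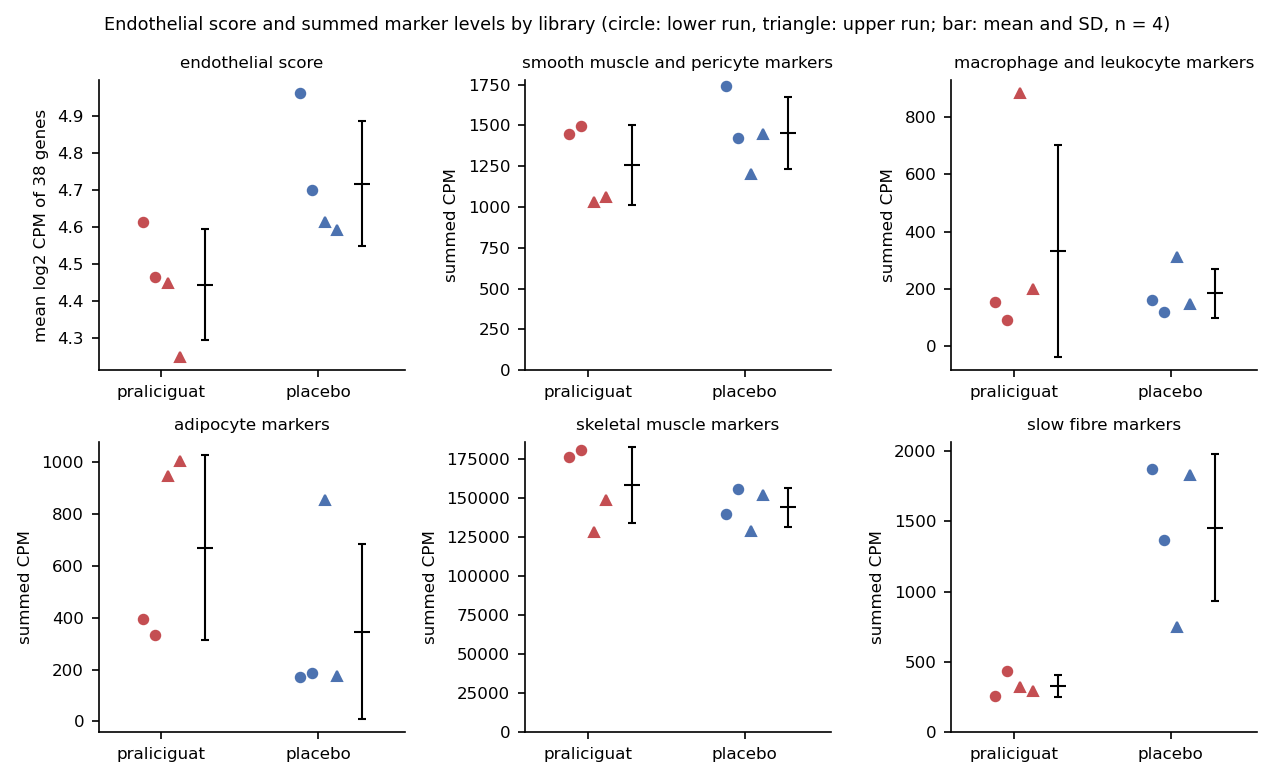
Endothelial score (mean log2 CPM of 38 genes) and summed CPM of 5 marker lists, praliciguat left of placebo, 1 point per library, circles for the lower and triangles for the upper run, bars for mean and SD of 4 libraries. The score lies between 4.25 and 4.61 with praliciguat and between 4.59 and 4.96 with placebo, and the slow fibre markers separate the groups, with 256 to 439 CPM against 751 to 1870.2 CPM.

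Markers of other cell types were read beside this score. The 13 smooth muscle and pericyte markers, cells that wrap the same vessels, summed to 1031 to 1495 CPM in praliciguat libraries and 1199 to 1741 CPM in placebo libraries, with 12 of 13 below 0 and a median log2 fold change of -0.22; the 3 of lowest p were Kcnj8 (-0.32 ± 0.12 SE), Higd1b (-0.48 ± 0.23 SE) and Rgs5 (-0.29 ± 0.16 SE). Without placebo replicate 1, 7 of 13 lay below 0 and the median was -0.06. The 8 slow fibre markers, whose fibres are rich in capillaries, summed to 256 to 439 CPM in praliciguat libraries and 751 to 1870.2 CPM in placebo libraries, with 8 of 8 below 0, led by the slow troponins Tnnt1 (-2.99 ± 0.35 SE) and Tnni1 (-2.83 ± 0.38 SE) and the calcium pump Atp2a2 (-2.01 ± 0.28 SE). The 6 adipocyte markers had the opposite sign, with 6 of 6 above 0, a median of 0.98 and sums of 395, 333, 949 and 1006 CPM in praliciguat replicates 1 to 4, against 172, 187, 853 and 174 CPM in placebo replicates 1 to 4, led by Cfd (1.37 ± 0.62 SE), Adipoq (1.08 ± 0.59 SE) and Plin1 (1.15 ± 0.64 SE). Placebo replicate 3 stood far above the other placebo libraries, and without it the median was 1.79 with 6 of 6 above 0. Of the macrophage and leukocyte list 11 of 12 were tested, and all 11 were above 0 (median 0.76), with Cd68 at 1.02 ± 0.73 SE, Lyz2 at 1.04 ± 0.76 SE and Adgre1 at 1.2 ± 0.93 SE. That direction rested on praliciguat replicate 3: without it all 11 were below 0 (median -0.32). Fibroblast markers had 7 of 9 above 0 (median 0.22), with Dpt at 0.59 ± 0.43 SE, Gsn at 0.38 ± 0.29 SE and Col3a1 at 0.78 ± 0.67 SE. Without praliciguat replicate 3, 7 of the 9 lay below 0 (median -0.36). Red cell and platelet markers had 7 of 9 tested below 0 (median -0.23), with Itga2b at -0.42 ± 0.27 SE, Ppbp at 0.54 ± 0.40 SE and Pf4 at 0.47 ± 0.41 SE, and the median was -0.0061 without placebo replicate 3 and -0.46 without placebo replicate 2. Skeletal muscle markers had 3 of 8 below 0 (median 0.14), with Myh1 at -0.46 ± 0.20 SE, Actn3 at 0.46 ± 0.22 SE and Ckm at 0.22 ± 0.11 SE. edgeR called 0 genes of each of these 7 lists, and 0% of all genes tested. At an unadjusted p under 0.05 there were 7 slow fibre, 1 smooth muscle and 1 skeletal muscle markers, all lower, against 3.78% lower among all genes. DESeq2 called 7 slow fibre markers lower, where it called 0.842% of all genes lower. No marker was at 0 in all 8 libraries. Their part in the endothelial values was not tested.

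Other genes of vessel lining, outside the 38, were read in the same fit. Their lists, too, were chosen with earlier results of these data known. Of 24 further pan-endothelial genes 22 had a fold change below 0 (median -0.24), 5 had an unadjusted p under 0.05 and 5 did not overlap, all lower. Among all genes tested, 44.8% lay below 0, 3.78% had an unadjusted p under 0.05 on the lower side and 2.54% separated downward. Notch4, an endothelial Notch receptor, had 37.8 ± 5.05 CPM in praliciguat libraries and 65.9 ± 9.34 CPM in placebo libraries, and Nos3, the endothelial nitric oxide synthase, 15.7 ± 1.92 and 24.0 ± 2.67 CPM (SD, n = 4 each). Ptprb, a phosphatase that acts on VE-cadherin and Tie2, had a log2 fold change of -0.46 ± 0.11 SE. Of the further arterial, lymphatic, capillary and venous lists, the unadjusted p was under 0.05 for 5 arterial, 4 lymphatic, 2 capillary and 0 venous genes, all lower. All 10 further arterial genes were below 0 (median -0.40), led by Notch1 (-0.46 ± 0.11 SE), Unc5b (-0.83 ± 0.25 SE) and Jag2 (-0.26 ± 0.09 SE). All 7 further lymphatic genes were below 0 (median -0.63), led by Flt4, the VEGF-C receptor (-0.63 ± 0.13 SE), Reln (-1.16 ± 0.34 SE) and Prox1, the lymphatic master factor (-0.63 ± 0.25 SE). Pdpn (-0.09 ± 0.41 SE) and Ccl21a (-0.15 ± 0.40 SE) were below 0 within the lower run and above 0 within the upper run. Without praliciguat replicate 1 or without praliciguat replicate 2, 5 of the 7 lay below 0. Without placebo replicate 4, 6 of the 7 did. Which cells of the muscle supplied these transcripts, Prox1 included, was not tested.

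The further capillary and venous genes were mixed. Of 8 capillary genes 5 were below 0 (median -0.04), with Sparcl1 at -0.44 ± 0.13 SE and Rgcc at -0.39 ± 0.13 SE, and Fabp4, a fatty acid carrier of capillaries that adipocytes also make, at 0.55 ± 0.28 SE. Of 6 venous genes 2 were below 0 (median 0.03), with Vcam1 at 0.33 ± 0.43 SE, Tmem252 at -0.14 ± 0.44 SE and Ackr1 at 0.06 ± 0.22 SE. Against 0% of all genes tested, edgeR called 0 genes of each of these 5 lists. DESeq2 called 3 of the pan-endothelial, 1 of the arterial and 1 of the lymphatic genes lower, where it called 0.842% of all genes lower. With any one library left out, the median ran from -0.29 to -0.15 for the pan-endothelial genes (-0.15 without praliciguat replicate 4), from -0.44 to -0.22 for the arterial genes (-0.22 without placebo replicate 1) and from -0.72 to -0.46 for the lymphatic genes. The medians of the capillary and venous genes turned sign, from -0.14 to 0.07 and from -0.14 to 0.16. Differences between these lists were not tested.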

How the data were processed

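RNA was made into stranded mRNA libraries (KAPA kit), per the labels' protocols. Per the submitters' processing notes, the tools were STAR 2.5.3a and RSEM 1.2.28 beside FastQC and Trimmomatic, and the build was mm10. The authors deposited 1 table per library; its expected count column holds RSEM's estimated reads per gene and its TPM column the length-scaled level, per the file headers. Estimated counts of related genes depend on how shared reads were divided.

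Here, the expected counts, rounded to integers, were fitted with edgeR 4.0.16 under R 4.3.3 (TMM scaling after filterByExpr, robust quasi-likelihood F test, Benjamini-Hochberg over all 13569 genes tested, threshold 0.05), on group alone. CPM are relative to TMM-scaled library sizes, which also serve the genes filtered out. Log2 CPM in scores have a prior count of 2. Fold changes are praliciguat over placebo. All 38 members passed the filter. Total expected counts of 21099764 to 31896205 put the floor of 3 counts at 0.0941 to 0.142 CPM before scaling, for counting error only. No pair of libraries of a group agreed within sampling noise (chi-square per degree of freedom 22.0 to 136.3). Replicates are numbered in accession order and pair nothing. The fit was also run on simulated counts, in which every change put in was larger in size than the median of the 38 genes. That run cannot show whether changes as small as that median are found.

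The members, their roles and all gene lists were chosen with earlier results of these data known, so no list test was run. Values in every library are printed for members with an unadjusted p under 0.05 or without overlap, for 14 genes named by rule and for the highest and lowest TPM; Cd34 and Cyyr1 were added after their values were seen. Of each other list the 3 genes of lowest p are named, and of the lymphatic list also Pdpn and Ccl21a, added after their values were seen. Alternatives were DESeq2 1.42.0 and limma 3.58.1 (voom, log2(TPM + 1), log2(TPM + 0.1)), 2 scalings, 2 filters, a block for the run, leaving out single libraries, and a threshold of 0.1; fits within each run were added after seeing the data. Overlaps came from GENCODE M21 exons.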

Additional observations from a re-analysis of the deposited data

Results flagged for a closer look

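Of 76 groups of 4 libraries examined (38 genes in each of 2 groups), 4 had an end value standing off the other 3 by more than Dixon's 95% critical share of the range; chance flags about 1 in 20 such groups. Cdh5 and Emcn were low in placebo replicate 4, at 168 and 16.3 CPM, against 210.2 to 215 and 20.7 to 21.4 CPM in the other placebo libraries. Tal1 was high in praliciguat replicate 2, at 3.23 CPM, against 1.96 to 2.07 CPM in the other praliciguat libraries. Klf2 was high in placebo replicate 1, at 61.9 CPM, against 44.2 to 45.6 CPM in the other placebo libraries. Without that library the log2 fold change of Klf2 was 0.47.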

How the results depend on the processing

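Over 19 alternative settings the median log2 fold change of the 38 genes stayed below 0, and 26 of the 38 genes kept their sign throughout. DESeq2 called 129 genes (114 lower), 2 of them members. The run as a block called 3 genes, and an adjusted p under 0.1 called 11, with 0 members in each; the edgeR threshold of 0.05 called 0 (778 genes at an unadjusted p under 0.05). The lower run alone, 2 libraries against 2 and chosen after seeing the data, called 364 of 13565 genes tested, 205 of them lower. Among them were 3 of the 38 members, all lower (Cd34, Cd93 and Gja5). The upper run alone called 0 genes, and Cd34 had the opposite sign there (0.26). Leaving out 1 library each time, 0 to 5 genes and 0 members were called (5 without placebo replicate 3), 28 to 36 members lay below 0, the median ran from -0.36 to -0.21 and the score difference from -0.33 to -0.19. Without placebo replicate 1, 2 members had an unadjusted p under 0.05 on the higher side. No paired analysis was possible because the replicate numbers only follow accession order. Other scalings and count filters called 0 genes; 1 CPM in 4 libraries removed 1 member.

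Signs turned in 12 genes, and the cause was not tested. With 1 library left out the log2 fold change ran from -0.13 to 0.014 for Emcn, -0.24 to 0.17 for Clec14a, -0.15 to 0.11 for Egfl7, -0.12 to 0.13 for Fli1, -0.22 to 0.12 for Gata2, -0.050 to 0.27 for Klf4, -0.12 to 0.41 for Cyyr1, -0.25 to 0.016 for Gja4, -0.12 to 0.041 for Ephb4 and -0.57 to 0.059 for Lyve1. In the upper run alone it was 0.13 for Clec14a, 0.015 for Ecscr, 0.26 for Cd34, -0.28 for Klf4, -0.75 for Cyyr1 and 0.23 for Gja4. In the lower run alone it was 0.21 for Gata2 and 0.12 for Ephb4. Cyyr1 was -0.013 with the run as a block, -0.091 with voom, -0.015 on log2(TPM + 1) and -0.053 on log2(TPM + 0.1), and Fli1 was -0.0063 and -0.0075 on the same TPM scales. Depth limits Bmx and Tal1 most, the members with fewest reads. With 4 libraries a group, the median standard error of the members was 0.18 on the log2 scale, beside a median log2 fold change of -0.31.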
